A study of Mus musculus with 6 samples.

Results

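The stable knockdown line labelled macroH2A2 shRNA was compared directly with the line labelled macroH2A1 shRNA, without the control line, to describe the genes that separate these lines. The members are the 4 arrays whose titles name these 2 hairpins, 2 arrays per line, out of 6 arrays of 3 lines in the series. All arrays hold total RNA of B16-F1 cells, which come from a melanoma of a C57BL/6J mouse and into which a lentivirus had stably introduced a short hairpin RNA (shRNA). The arrays of a line are labelled as biological replicates 1 and 2 and are called here set 1 and set 2. Each line is 1 stable line with 1 named target. Whether a line came from a single clone, and how many hairpins were used per target, is not stated in the labels, so a difference between the lines and a difference between knockdowns of the 2 targets cannot be told apart.

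The macroH2A proteins replace ordinary H2A in some nucleosomes and bear a globular macro domain behind their histone fold. Vertebrates have separate genes for macroH2A1 and macroH2A2, the former spliced into isoforms of which one binds ADP-ribose and its derivatives. They are enriched on the inactive X chromosome and on silent regions of autosomes, and have been studied in melanoma as histones whose level falls as the disease advances.

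A positive log2 difference always means a higher signal in the macroH2A2 shRNA line. Signals are given in the deposited intensity units. Differences are between means of log2(signal + 16), which understates the change of dim probe sets. Of 45037 probe sets that are not controls, 27031 had a mean signal of at least 10 over the 4 arrays and were tested with limma, and 22719 of them carried 1 gene symbol, for 12099 genes. The median signal of the set 1 arrays was 20.6 in the macroH2A1 line and 19.4 in the macroH2A2 line, and that of the set 2 arrays 15.4 and 16.1. Across tested probe sets, arrays of the same set correlated with 0.987 (set 1) and 0.988 (set 2) between the lines, and the replicates of a line with 0.979 (macroH2A1) and 0.982 (macroH2A2). So an array resembled the other line's array of the same set more than its own replicate. Over single arrays, the median absolute difference between the lines was 0.18 in each set, against 0.23 and 0.22 between the replicates of a line. For the ranked genes and list members named below, differences within sets are printed wherever they lay more than 0.5 apart, as well as in some other cases.

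All 7 melanocyte markers were tested and bright. Mlana, a melanosomal antigen, read 7166.0 and 8660.3 in the macroH2A1 line and 6699.4 and 7922.5 in the macroH2A2 line, and Sox10, a transcription factor of the lineage, lay between 1311.3 and 1600.4 on the 4 arrays. The median difference of the 7 was -0.14, or -0.03 after quantile normalization. Markers of other cells were dim. On each array, the summed signal of the 5 leukocyte markers measured was 79.7 and 62.5 in the macroH2A1 line and 55.1 and 58.4 in the macroH2A2 line. The 6 fibroblast markers summed to 144.3 and 110.5 against 118.4 and 104.3, the 5 keratinocyte markers to 28.1 and 29.6 against 43.1 and 38.8, and the 5 endothelial markers to 45.4 and 39.5 against 33.8 and 29.6. None of these was above 79.8, the value of Col1a2 on 1 array, and Ptprc, which marks all leukocytes, stayed at or below 3.3.

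Macroh2a1, the gene targeted in one of the lines, separated them most clearly. Its probe set read 444.2 and 319.1 with the macroH2A1 hairpin and 1271.2 and 1170.5 with the macroH2A2 hairpin, or 381.7 ± 88.5 against 1221 ± 71.2 (mean ± SD, n = 2 arrays each). The groups were far apart, with a gap of 1.37 log2 units between their nearest arrays. The log2 difference was 1.65 (SE 0.19), a 3.15-fold higher signal on this scale, with 1.48 in set 1 and 1.82 in set 2. It had the smallest p of all probe sets (limma unadjusted p = 4.03e-05), yet its Benjamini-Hochberg adjusted limma p was 1. In a limma fit with the set as a block the adjusted p was 0.00463, so the call for this gene depends on the block.

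Macroh2a2 could not be used to check the other label. Its probe set read 3.5 and 2.0 in the macroH2A1 line and 11.9 and 8.3 in the macroH2A2 line, with a log2 difference of 0.47, and lay below the filter, so it was not tested. The signal was not lower in the line meant to lack it, at a level where a knockdown was not detectable. Every direction below therefore rests on the Macroh2a1 values and, for the macroH2A2 shRNA line, on its label alone. Among the other H2A variants tested, H2ax, the variant phosphorylated at DNA breaks, differed by 0.15 (SE 0.18), H2aj by -0.05 (SE 0.14) and H2az2 by -0.04 (SE 0.12).

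With limma, 0 of 27031 probe sets (0%) had a Benjamini-Hochberg adjusted p under 0.05 and the smallest adjusted p was 1, while 745 (2.76%) had an unadjusted p under 0.05, 332 of them higher (1.23%) and 413 lower (1.53%) in the macroH2A2 line. With the set as a block 1845 probe sets had an unadjusted limma p under 0.05 and 3 passed the adjusted threshold (0.0111%), namely Macroh2a1, Fam162a and 1 probe set whose annotation lists several genes. The 2 arrays of one line lay wholly above or below those of the other for 7595 probe sets (28.1%), 3643 higher (13.5%) and 3952 lower (14.6%), and the difference was above 0 for 13265 (49.1%) and below 0 for 13765 (50.9%). A log2 difference of 1 or more without overlap was found for 9 probe sets higher (0.0333%) and 14 lower (0.0518%). With 2 arrays against 2, an exact two-sided permutation test of a single gene cannot go below 0.333. The genes named next are those with the smallest unadjusted limma p, or the widest gap between nearest arrays, among genes whose groups do not overlap. This rule gave 17 genes in each direction, including Macroh2a1. Since they were ranked on these differences, their values are a description of the extremes of the comparison and not a set of called genes.

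**Figure D1:**
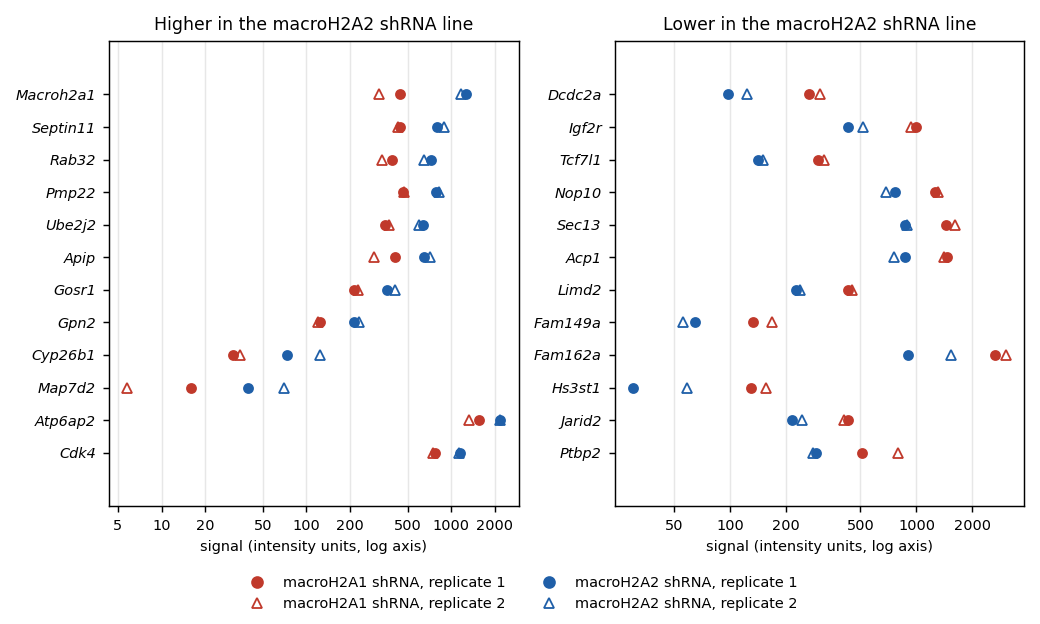
Signal (intensity units, log axis) of the genes ranked by smallest p on each of the 4 arrays, with colour for the line and marker shape for the replicate number. By the ranking rule the arrays of the lines do not overlap in any row, and Macroh2a1 reads 444.2 and 319.1 against 1271.2 and 1170.5.

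Among the genes ranked as higher in the macroH2A2 line, Septin11, a filament-forming GTPase, read 443.3 and 430.3 in the macroH2A1 line and 796.7 and 887.1 in the macroH2A2 line. Its log2 difference was 0.92 (SE 0.15, limma unadjusted p = 0.00036). A second Septin11 probe set gave 0.89 and the other 0.01, so the probe sets of this gene disagreed. Rab32, a small GTPase that directs enzymes to maturing melanosomes, read 391.5 and 332.3 against 719.4 and 651.1, a difference of 0.89 (SE 0.16). Gosr1, a SNARE protein of the Golgi, read 214.0 and 226.6 against 357.3 and 405.9 (0.75, SE 0.16), with 0.41 for its other probe set. Atp6ap2, an accessory protein of the vacuolar proton pump, read 1547.4 and 1322.7 against 2165.3 and 2158.8 (0.59, SE 0.13), and its other 2 probe sets gave 0.49 and 0.52. All 3 probe sets of Atp6ap2 thus pointed the same way.

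Pmp22, a tetraspan membrane protein of myelin that is also made outside nerve, read 465.3 and 473.8 in the macroH2A1 line and 786.6 and 820.7 in the macroH2A2 line (0.76, SE 0.14). Its relative Emp1, a member of the same family, read 88.8 and 90.3 against 167.3 and 158.2 (0.76). In both genes the replicates of a line lay close together, which a ranking by p or by gap favours. Map7d2, a microtubule-associated protein, read 15.9 and 5.8 against 39.6 and 70.4, the widest log2 difference after Macroh2a1 among the genes named as higher (1.39, SE 0.31), and its second probe set gave 1.02. Its difference was 0.80 in set 1 and 1.99 in set 2.

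Ube2j2, a ubiquitin-conjugating enzyme of the endoplasmic reticulum, read 351.1 and 373.2 against 638.1 and 602.1 (0.75, SE 0.15), although its other probe set gave -0.12. Apip, an enzyme of methionine salvage, read 408.2 and 294.8 against 644.0 and 716.9 (0.94, SE 0.19, with 0.64 in set 1 and 1.24 in set 2). Gpn2, a GTPase, read 123.1 and 119.7 against 213.5 and 228.9 (0.79, SE 0.17). Cyp26b1 breaks down retinoic acid, a regulator of melanocyte differentiation. Its probe set read 31.1 and 35.0 in the macroH2A1 line and 74.0 and 123.7 in the macroH2A2 line (1.19, SE 0.26, with 0.93 in set 1 and 1.45 in set 2). Cdk4, the cyclin D partner that drives cells out of G1, read 768.6 and 751.1 against 1145.4 and 1124.1 (0.57, SE 0.13), and its other 2 probe sets gave 0.48 each. The signal of Cdk4 on both macroH2A2 arrays was above that on both macroH2A1 arrays, as the ranking rule required of every gene named here.

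The widest gaps also picked out probe sets that were near or below the filter level in the macroH2A1 line. Ifi27l2a, an interferon-inducible gene, read 1.3 and 1.6 against 19.1 and 20.3 (1.03). Pld2, a phospholipase D, read 3.5 and 3.0 against 23 and 18.5 (0.93), with 0.15 for its other probe set. For Tyk2, a Janus kinase of the interferon receptor, a dim probe set read 10.4 and 4.0 against 44.4 and 26.8 (1.15), while the other, at 139.2 and 183.2 against 151.4 and 204.7, gave 0.13. Lmo7, a LIM domain protein of cell junctions, showed the same split, with 0.84 for a dim probe set (6.8 and 6.1 against 27.6 and 21.2) and -0.12 for a bright one (436.5 and 278.4 against 413.3 and 245.1). The values of Pld2, Tyk2 and Lmo7 are therefore those of 1 dim probe set and were not shared by the gene's other probe set. Ifi27l2a had no other tested probe set. The macroH2A1 means of Ifi27l2a, Pld2, Tyk2 and Lmo7 were 1.45, 3.25, 7.2 and 6.45, below the filter of 10. These probe sets were tested only because the macroH2A2 arrays were higher, so their direction was not independent of the filter.

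Among the genes ranked as lower in the macroH2A2 line, Tcf7l1, a repressor at Wnt target genes, read 295.9 and 318.2 in the macroH2A1 line and 141.1 and 149.1 in the macroH2A2 line (-1.0, SE 0.17, limma unadjusted p = 0.000501). The difference was -0.99 in set 1 and -1.02 in set 2, but a second Tcf7l1 probe set read 160.6 and 223.2 against 152.3 and 174.4 (-0.20). Jarid2, a partner of Polycomb repressive complex 2, read 427.8 and 408.0 against 214.7 and 241.6 (-0.83, SE 0.16). Its other 2 probe sets gave -0.71 and -0.56, so all 3 pointed the same way. Ptbp2, a splicing repressor best known from developing neurons, read 511.4 and 797.2 against 287.6 and 278.1 (-1.13, SE 0.22), with -0.80 in set 1 and -1.47 in set 2, and -0.48 for the second probe set.

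Igf2r, the receptor that carries mannose 6-phosphate enzymes to lysosomes and clears IGF2, and an imprinted gene in the mouse, was lower on both of its probe sets. One read 992.3 and 932.8 against 431.2 and 519.0 (-1.0, SE 0.15, limma unadjusted p = 0.000321). The other read 600.0 and 467.1 against 313.0 and 259.1 (-0.86). The ranking rule required the same sign in both sets, and the first probe set gave -1.17 and -0.83. Sec13, a coat protein of vesicles leaving the endoplasmic reticulum and a part of the nuclear pore, read 1435.2 and 1617.4 against 872.7 and 886.7 (-0.78, SE 0.13). Hs3st1, which modifies heparan sulfate, read 129.2 and 154.8 against 30.1 and 58.7 (-1.42, SE 0.27), the most negative difference among the ranked genes.

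Acp1, a low molecular weight tyrosine phosphatase, read 1451.6 and 1413.2 against 872.6 and 760.9 (-0.80, SE 0.14), and its 5 other probe sets were lower too, with differences from -0.26 to -0.76. A probe set among these overlapped (477.9 and 164.3 against 301.4 and 112.9), and another was dim (12.1 and 13.8 against 11.5 and 5.1). A further probe set differed by only -0.04 in set 1. Nop10, a protein of the particles that guide pseudouridylation of ribosomal RNA, read 1257.9 and 1304.8 against 764.2 and 686.4 (-0.81, SE 0.14), with -0.72 for its other probe set. For these genes the choice of probe set did not alter the direction. Dcdc2a, a microtubule-binding doublecortin family protein, read 266.4 and 303.8 against 96.9 and 123.3 (-1.26, SE 0.19, limma unadjusted p = 0.000297), with -0.15 for its other probe set. Limd2, a small LIM domain protein, read 429.6 and 451.4 against 225.5 and 235.6 (-0.89, SE 0.16), while its other 3 probe sets gave -0.62, -0.27 and -0.01, the last with overlapping arrays. Fam149a read 132.5 and 167.0 against 64.7 and 55.5 (-1.12, SE 0.21), with -0.60 for its second probe set.

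Fam162a, a mitochondrial protein whose gene responds to low oxygen, read 2636.4 and 3018.5 in the macroH2A1 line and 898.1 and 1534.5 in the macroH2A2 line (-1.25, SE 0.24, limma unadjusted p = 0.00116). The difference was -1.54 in set 1 and -0.97 in set 2, and by the ranking rule both macroH2A2 arrays lay below both macroH2A1 arrays. A second, dim Fam162a probe set read 38.6 and 11.3 against 37.0 and 11.2 (-0.02) and overlapped. Besides Macroh2a1, the first Fam162a probe set was the other named one to pass with the set as a block (limma adjusted p = 0.0182), and with all 6 arrays and the block its adjusted p was 0.183. The remaining genes lower by the gap ranking were Dnm1, a dynamin of endocytosis (153.2 and 94.2 against 45.9 and 42.4, -1.18, with -1.45 and -0.92 within sets and -0.22 for its other probe set), Olfm1, a secreted olfactomedin (46.6 and 53.2 against 15.5 and 19.2, -0.98, and -0.47 with overlap for its other probe set), Col27a1, a fibrillar collagen (52.0 and 47.2 against 6.8 and 20.6, -1.18, with -1.58 and -0.79 within sets and 0.09 for its other probe set), and Zfp618, a zinc finger protein (120.6 and 121.7 against 63.7 and 60.8, -0.81, and -0.44, -0.16 and -0.02 for its others). A probe set of Rtn4, a reticulon of the endoplasmic reticulum, read 119.8 and 151.8 against 61.9 and 59.8 (-0.97), while its 4 other probe sets gave 0.01 to 0.26. The value for Rtn4 thus belongs to 1 of its 5 probe sets.

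Of 22719 tested probe sets with 1 symbol, 11687 (51.4%) differed in the same direction in both sets, and across all tested probe sets the differences in set 1 and set 2 correlated with 0.038, points that share the same 2 arrays in each set. A difference of at least 0.5 in each set was seen for 467 probe sets. Of these 123 were higher in both and 143 lower in both, while 145 were lower in set 1 and higher in set 2 and 56 the reverse. Opposite signs were thus common among these 467 probe sets, which are themselves a small part of the 22719.

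**Figure D2:**
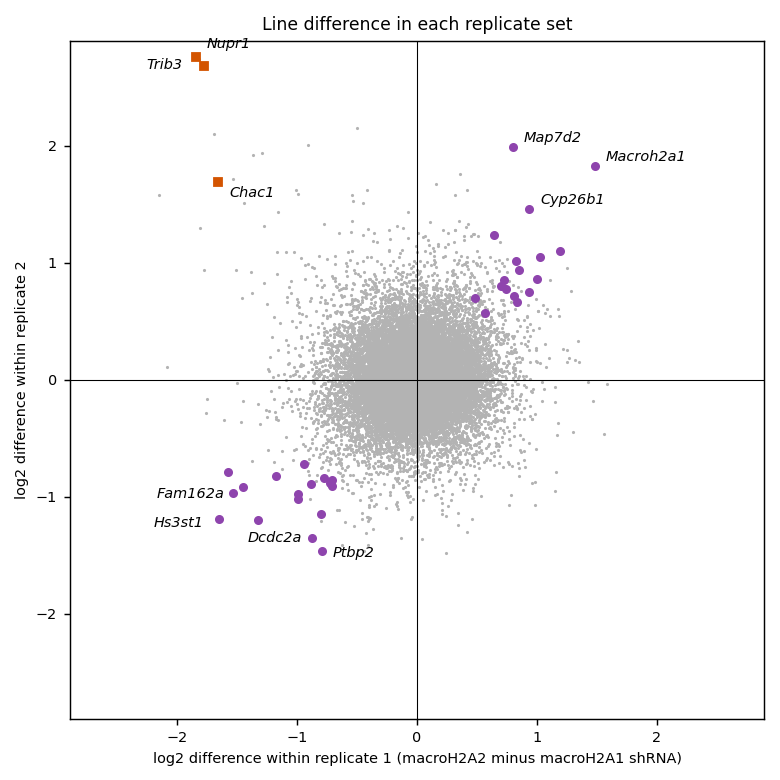
Log2 difference (macroH2A2 minus macroH2A1 shRNA) within replicate 1 against that within replicate 2 for all tested probe sets with 1 symbol (grey), the ranked genes (purple circles) and the 3 genes with the largest differences of opposite sign (orange squares). The grey cloud shows little slope (correlation 0.038 over all tested probe sets), Macroh2a1 sits at 1.48 and 1.82, and Nupr1 at -1.85 and 2.76.

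The largest of these opposite differences were in genes of the amino acid and unfolded protein stress response, which ATF4 and related factors switch on. They were singled out after their values were seen. Trib3, a pseudokinase induced by this response, read 466.1 and 97.0 in the macroH2A1 line and 124.5 and 709.0 in the macroH2A2 line, a difference of -1.78 in set 1 and 2.68 in set 2. Chac1, which degrades glutathione, read 730.7 and 253.0 against 220.6 and 849.3 (-1.66 and 1.69). Nupr1, a small stress-induced chromatin protein, read 436.1 and 131.0 against 109.8 and 978.1 (-1.85 and 2.76). In these genes the high arrays were replicate 1 of the macroH2A1 line and replicate 2 of the macroH2A2 line, and the lines overlapped. Over the whole list of 46 tested genes, 11 were higher in set 1 and 33 in set 2, with medians of -0.42 and 0.37, and a pooled median of 0.04.

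Cell cycle genes divided the other way. Of 48 G1/S and replication genes 41 were higher in the macroH2A2 line in set 1 and 4 in set 2, with medians of 0.20 and -0.30. Of 44 G2/M and mitosis genes the counts were 39 and 9, with medians of 0.24 and -0.13. Heat shock chaperones (25 and 7 of 30 higher, medians 0.19 and -0.09) and proteasome subunits (26 and 8 of 31, 0.13 and -0.04) did likewise. In the pooled comparison these lists had medians of -0.07, 0.05, 0.03 and 0.02, and 0 members passed the threshold. Cdk2, the kinase of S phase entry, read 1916.1 and 2006.4 against 1522.4 and 1591.2, with -0.33 in each set (SE 0.12 pooled), and Ccne2, one of its cyclins, read 175.3 and 213.3 against 352.2 and 239.2 (0.55, SE 0.22), with 0.94 in set 1 and 0.15 in set 2. Cdk2 was lower and Ccne2 higher on both macroH2A2 arrays than on either macroH2A1 array.

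**Figure D3:**
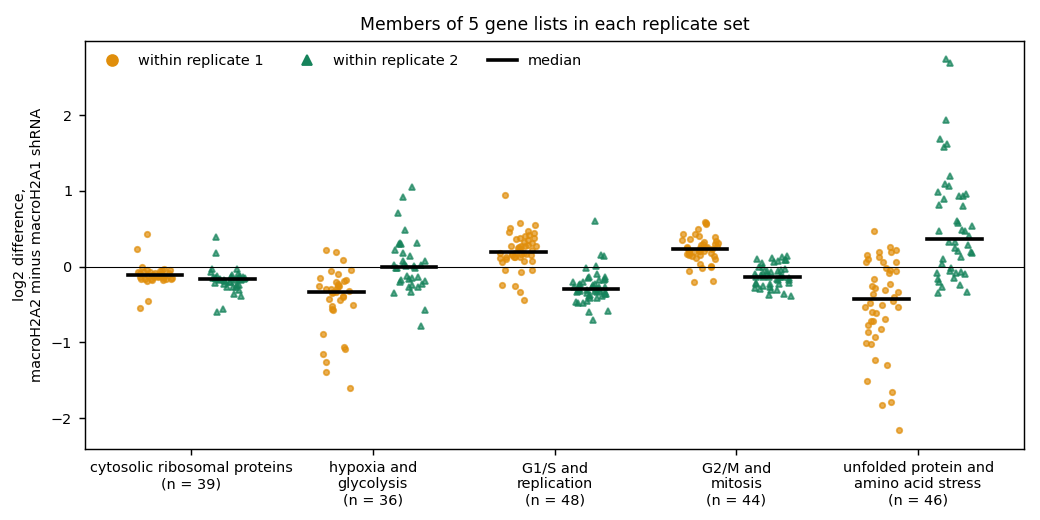
Log2 difference of every tested member of selected gene lists within replicate 1 and within replicate 2, each point 1 gene, with the list medians marked. The stress response genes have a median of -0.42 in replicate 1 and 0.37 in replicate 2, and the G1/S genes 0.20 and -0.30.

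In all, 38 lists of genes with a shared function or cell type, those above included, were described by counts and medians, each gene by its brightest probe set. For comparison, of all 12099 genes 6051 were higher and 6048 lower, the median was 0.00 and the middle of the distribution, from the lower to the upper quartile, ran from -0.13 to 0.12. Among these genes 15.2% did not overlap and were higher, 16% did not overlap and were lower, and 3.29% had an unadjusted limma p under 0.05. In every list 0 members passed the threshold, so the counts that follow are of signs and not of called genes. Most pooled medians were small. For 26 of the 33 lists that are not cell type markers the median took the opposite sign when 1 of the arrays was left out. The 7 that kept their sign in every setting were ribosomal proteins, hypoxia and glycolysis, p53 targets, pigment synthesis, cadherin switch, matrix remodelling and redox genes. Within single sets 2 of them did not keep it. The matrix remodelling median was 0.05 in set 1 and -0.08 in set 2, and that of pigment synthesis -0.086 and 0.003. Another scaling of the arrays turned the sign of 5 medians, all near 0, those of macroH2A and H2A variants, respiratory chain, MAP kinase, high mobility group and imprinted genes.

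**Figure D4:**
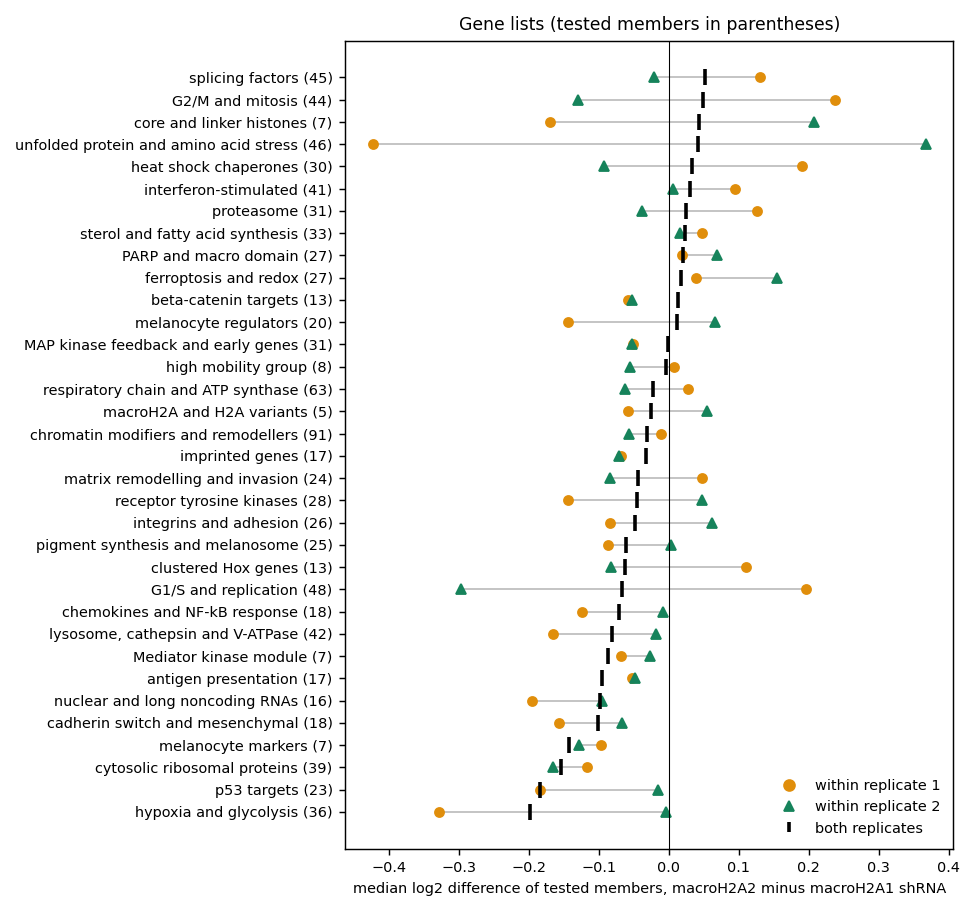
Median log2 difference of each gene list's tested members, over both replicates (black bars) and within replicate 1 (circles) and replicate 2 (triangles). Most pooled medians lie within 0.1 of 0, hypoxia and glycolysis genes at -0.20, p53 targets at -0.18 and ribosomal proteins at -0.15.

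Ribosomal protein genes had the most one-sided signs. Of 70 listed, 39 were tested, and 37 of these were lower in the macroH2A2 line. Without overlap 28 were lower, while over all genes 16% were. The list's median was -0.15 (-0.12 in set 1 and -0.17 in set 2). Rps25, a protein of the small subunit, read 781.4 and 700.9 against 532.5 and 459.5 (-0.57, SE 0.15), and Rpl22, of the large subunit, 7305.7 and 7895.2 against 6521.2 and 6367.1 (-0.24, SE 0.11). After quantile normalization the list's median was -0.03, with 7 members higher and 31 lower. After median centring it was -0.14, with 2 higher and 37 lower. The size of this shift thus depended on which normalization was used. The 18 hybridisation control probe sets, which carry no cellular RNA, had a median difference of -0.31 in set 1 and -0.12 in set 2, and their part in the result was not tested. Respiratory chain and ATP synthase genes had a median of -0.02 with 35 of 63 lower, and of 0.01 after quantile normalization.

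Many hypoxia and glycolysis genes are targets of the oxygen-regulated factor HIF-1. Of 36 genes of this list 30 were lower, 15 without overlap (16% over all genes), with a median of -0.20. The shift was that of set 1 (median -0.33, 3 higher), since in set 2 it was -0.00 with 18 higher. It was -0.06 without replicate 1 of the macroH2A2 line and -0.37 without its replicate 2. Pdk1, a kinase that inhibits pyruvate dehydrogenase, read 1228.4 and 740.4 against 503.5 and 614.4 (-0.76, SE 0.24, with -1.26 in set 1 and -0.26 in set 2). Ankrd37, an ankyrin repeat protein, read 157.5 and 82.3 against 41.0 and 61.6 (-0.97, SE 0.31, with -1.61 and -0.34). Pfkl, a phosphofructokinase subunit, read 262.6 and 278.3 against 135.2 and 218.0 (-0.61, SE 0.23, with -0.88 and -0.33). Car9, a surface carbonic anhydrase, read 62.4 and 57.3 against 42.3 and 33.4 (-0.50, SE 0.22). In all 4 genes the macroH2A2 arrays were below both macroH2A1 arrays.

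Redox genes included members that were higher in the macroH2A2 line. Of 27 tested, 17 were higher, although the median was 0.02. Without overlap 7 were higher and 2 lower, while over all genes 15.2% were higher and 16% lower. Srxn1, sulfiredoxin, which repairs oxidised peroxiredoxins, read 121.8 and 192.6 against 235.2 and 337.2 (0.81, SE 0.26). The subunits of the enzyme that makes the glutathione precursor were both higher. Gclm, the modifier subunit, read 230.7 and 290.1 against 354.8 and 376.8 (0.47, SE 0.18), and Gclc, the catalytic subunit, 244.7 and 273.2 against 341.6 and 346.8 (0.39, SE 0.16). Nqo1, a quinone reductase, read 42.4 and 44.1 against 64.3 and 67.2 (0.46, SE 0.20). All 4 are textbook targets of the antioxidant factor NRF2, and their macroH2A2 arrays lay above both macroH2A1 arrays. These are the 4 members with the smallest p, and 10 of the 27 pointed the other way.

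Promoters of 8 of these genes were read from RefSeq (GRCm38.p6), as the 250 bases before the annotated start, to show where the core letters bound by the named factors occur. The hypoxia response core ACGTG was searched on both strands in Fam162a, Ankrd37, Pdk1, Pfkl and Car9, and the antioxidant response core TGACNNNGC on both strands in Srxn1, Gclm and Nqo1. Gclc was not analysed here. Each window was searched for 1 motif, so overlaps between the motifs were not counted. Of 32851 promoters of this length 16.6% held ACGTG and 10.2% held TGACNNNGC. The windows with a match are printed in the direction of transcription, with the match in capitals. Fam162a lies on the minus strand at chr16:36071562-36071811 and has 1 match, on the opposite strand, 81 bases before the start. Ankrd37 lies on the minus strand at chr8:45999851-46000100 and has 2 matches, 241 and 6 bases before the start. Car9 lies on the plus strand at chr4:43506776-43507025 and has 1 match, on the opposite strand, 18 bases before the start. Gclm lies on the plus strand at chr3:122245307-122245556 and has 1 match, on the opposite strand, 134 bases before the start.
Fam162a: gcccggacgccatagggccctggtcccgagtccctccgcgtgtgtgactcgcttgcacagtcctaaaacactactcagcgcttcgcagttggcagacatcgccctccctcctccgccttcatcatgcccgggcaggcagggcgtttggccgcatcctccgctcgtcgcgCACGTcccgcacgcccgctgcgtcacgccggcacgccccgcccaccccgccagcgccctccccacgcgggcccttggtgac
Ankrd37: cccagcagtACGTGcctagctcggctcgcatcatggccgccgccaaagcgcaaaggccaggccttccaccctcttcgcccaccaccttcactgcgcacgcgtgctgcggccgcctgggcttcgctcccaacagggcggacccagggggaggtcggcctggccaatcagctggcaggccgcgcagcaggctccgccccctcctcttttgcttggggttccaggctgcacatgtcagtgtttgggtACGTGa
Car9: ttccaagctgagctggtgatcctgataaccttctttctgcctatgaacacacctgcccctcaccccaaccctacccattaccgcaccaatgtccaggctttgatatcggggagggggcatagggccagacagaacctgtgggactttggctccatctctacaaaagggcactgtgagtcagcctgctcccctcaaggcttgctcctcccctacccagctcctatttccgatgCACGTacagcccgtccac
Gclm: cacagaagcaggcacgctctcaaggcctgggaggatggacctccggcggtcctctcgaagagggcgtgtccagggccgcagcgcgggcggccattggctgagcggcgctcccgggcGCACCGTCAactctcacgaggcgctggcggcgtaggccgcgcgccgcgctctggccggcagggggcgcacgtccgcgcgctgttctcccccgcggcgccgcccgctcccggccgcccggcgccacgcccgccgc
The letters searched were not found in the windows of Pdk1, Pfkl, Srxn1 and Nqo1. Other spellings of either core were not searched, so these windows are not shown to lack them. A match shows only that these letters are present, and binding was not measured.

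p53 targets were lower in 16 of 23 cases, and the median was -0.18 (-0.18 in set 1 and -0.02 in set 2). Without overlap 6 were lower and 0 higher, while over all genes 16% were lower and 15.2% higher. Zmat3, an RNA-binding protein induced by p53, read 484.8 and 605.7 against 301.5 and 343.5 (-0.72, SE 0.18), with -0.66 and -0.79 within sets. Trp53inp1, a stress protein that promotes p53 activity, read 1280.5 and 1577.6 against 675.1 and 1035.5 (-0.75, SE 0.22). Phlda3, an inhibitor of AKT, read 438.2 and 729.2 against 410.5 and 367.1 (-0.53, SE 0.24), and most of its difference came from set 2 (-0.96, against -0.09 in set 1).

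Splicing factors were higher in 30 of 45 cases with a median of 0.05, but its leading members were mostly lower. Besides Ptbp2, they included Srsf9, an SR protein, at 1581.9 and 1794.9 against 1093.5 and 1114.7 (-0.60, SE 0.13), and Sf3b4, a subunit of the U2 particle, at 1028.5 and 1113.6 against 756.4 and 841.9 (-0.42, SE 0.14). Ptbp1, the widely expressed relative of Ptbp2, was higher, at 1342.5 and 1210.2 against 1989.8 and 1547.0 (0.46, SE 0.16). The related repressors thus differed in opposite directions between the lines, with no overlap of arrays for either.

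Of 25 genes for pigment synthesis and melanosomes 19 were lower, with a median of -0.06 (-0.09 and 0.00 within sets). Trpm1, a cation channel whose gene hosts the microRNA miR-211, read 788.9 and 825.0 against 1309.5 and 1154.5 (0.60, SE 0.14), and Hps3, part of a complex that sorts melanosome cargo, 386.8 and 388.4 against 522.0 and 564.9 (0.47, SE 0.15). Oca2, a melanosomal transporter, read 669.4 and 904.2 against 577.6 and 534.8 (-0.47, SE 0.18), with -0.21 in set 1 and -0.74 in set 2. Among melanocyte regulators, 10 of 20 were higher with a median of 0.01. Cited1, a transcriptional coregulator and first by p in this list, read 281.6 and 297.2 against 440.2 and 367.1 (0.45, SE 0.17). Mitf, the master factor of the lineage, was first by p among the 7 melanocyte markers but not among the 4 leading regulators. It read 3806.9 and 3921.0 against 2897.6 and 3621.6 (-0.25, SE 0.14). In bulk RNA of a culture, fewer cells of a kind and less RNA per cell cannot be told apart.

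Of 42 lysosome genes 29 were lower (median -0.08), and the median was 0.04 without replicate 1 of the macroH2A2 line. Atp6v1e1, a subunit of the proton pump, read 4083.9 and 4459.8 against 3344.3 and 3571.6 (-0.30, SE 0.12), opposite in sign to Atp6ap2. Genes of invasion and adhesion were mixed. Mmp14, a membrane-bound matrix metalloproteinase, read 1251.2 and 867.7 against 1701.9 and 1569.8 (0.64, SE 0.19), while Hpse, heparanase, read 391.5 and 338.7 against 218.3 and 271.4 (-0.55, SE 0.18). Mcam, the melanoma cell adhesion molecule, read 623.1 and 675.3 against 467.2 and 312.9 (-0.74, SE 0.21), with -0.40 in set 1 and -1.07 in set 2. The lists they belong to had 9 of 24 (matrix) and 11 of 26 (adhesion) members higher, with medians of -0.04 and -0.05.

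Feedback and early response genes of the MAP kinase pathway, which is active in most melanomas, had 16 of 31 members lower and a median of -0.00. Without overlap 10 were lower and 1 higher, while over all genes 16% were lower and 15.2% higher. Etv5, an ETS factor, read 87.2 and 97.6 against 59.1 and 33.7 (-0.83, SE 0.26), with -0.46 in set 1 and -1.19 in set 2. Spry4, a feedback inhibitor of the pathway, read 46.7 and 24.6 against 15.2 and 11 (-0.80, SE 0.29), and Jund, an AP-1 subunit, 1215.8 and 968.3 against 792.8 and 831.9 (-0.41, SE 0.16). Among receptor tyrosine kinases 16 of 28 were lower, with a median of -0.05. Without overlap 7 were lower and 1 higher, against the same 16% and 15.2% over all genes. Hmga2, an architectural chromatin protein of embryonic and tumour cells, read 177.3 and 277.8 against 129.3 and 94.3 (-0.91, SE 0.26), with -0.41 in set 1 and -1.41 in set 2. Its list of high mobility group genes had 4 of 8 higher.

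**Figure D5:**
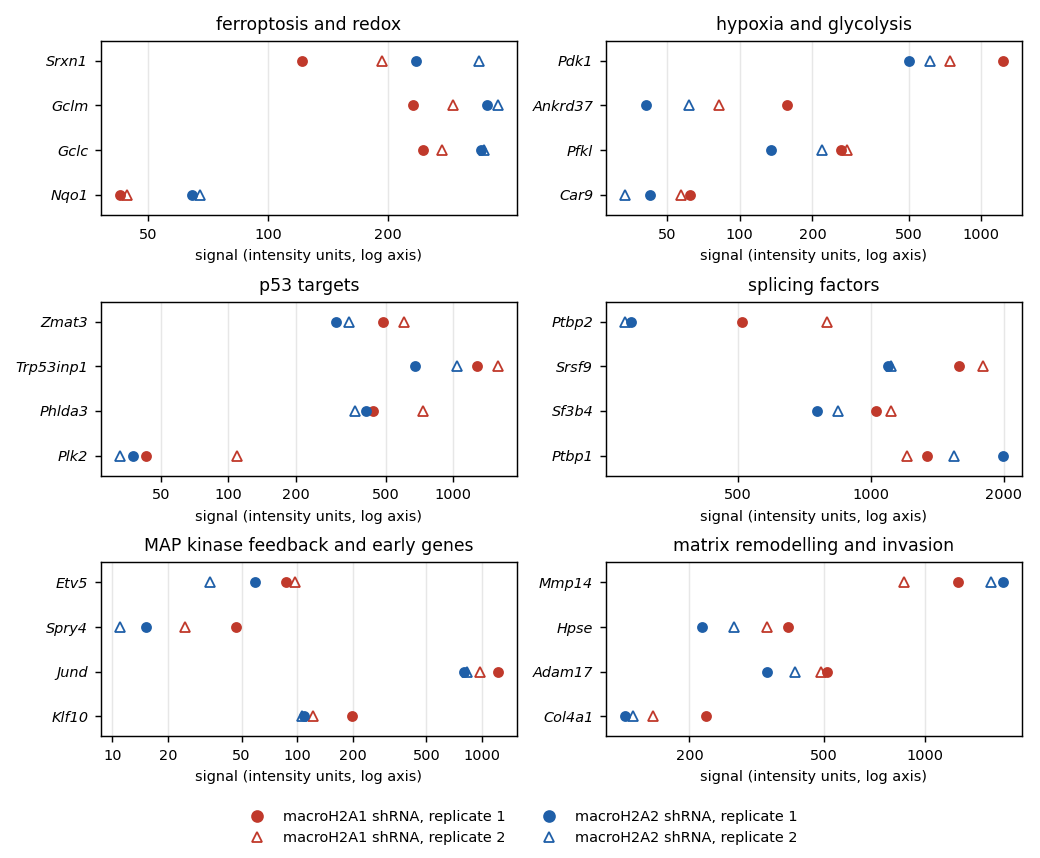
Signal (intensity units, log axes) on each array of the 4 members with the smallest unadjusted p in 6 gene lists, coloured by line, with marker shape for the replicate. Each row shows 1 gene, and in the redox panel Srxn1 reads 121.8 and 192.6 against 235.2 and 337.2.

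Of 41 interferon-stimulated genes 26 were higher in the macroH2A2 line, with a median of 0.03 (0.09 and 0.01 within sets). Without overlap 10 were higher and 2 lower, while over all genes 15.2% were higher and 16% lower. Oas1a, an interferon-induced synthetase, read 139.0 and 181.9 against 242.9 and 243.1 (0.56, SE 0.19), and Bst2, which tethers virions to cells, 802.7 and 960.6 against 749.1 and 721.8 (-0.25, SE 0.15). Of 17 antigen presentation genes 11 were lower (median -0.10), as were 11 of 18 chemokines and NF-kB response genes (median -0.07). Genes for PARP and macro domain proteins, enzymes and readers of ADP-ribose, were higher in 17 of 27 cases, with a median of 0.02. Without overlap 6 were higher and 0 lower, against the same 15.2% and 16% over all genes. Parp3, which acts in DNA break repair, read 360.0 and 271.0 against 456.5 and 510.9 (0.60, SE 0.19), with 0.33 in set 1 and 0.88 in set 2, and Macrod2, an ADP-ribose hydrolase, 168.2 and 192.7 against 281.2 and 242.0 (0.50, SE 0.18).

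Of 91 chromatin modifiers and remodellers 39 were higher and 52 lower (median -0.03), with Jarid2 first by p, followed by Hdac11, a histone deacetylase, at 79.8 and 72.3 against 42.9 and 56.6 (-0.49, SE 0.22). Imprinted genes had 8 of 17 higher and a median of -0.03, ranging from Igf2r at -1.0 to Phlda2, a placental growth regulator, at 0.79 (13.3 and 5.5 against 22.5 and 33.1, with 0.39 and 1.19 within sets). The Phlda2 mean of 9.4 in the macroH2A1 line was below the filter of 10, so Phlda2 was tested only through its macroH2A2 arrays. Clustered Hox genes had 4 of 13 higher (median -0.06), core and linker histones 4 of 7 (0.04) and beta-catenin targets 7 of 13 (0.01). The lists were longer than the tested genes, with 39 Hox genes and 25 histones listed. The Mediator kinase module ranged from -0.21 to 0.29 over 7 genes. Sterol and fatty acid synthesis genes (18 of 33 higher, median 0.02), genes of the cadherin switch (7 of 18, -0.10) and long noncoding RNAs (7 of 16, -0.10) had 0 members past the threshold as well.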

How the data were processed

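Gene expression was measured on 1-colour Affymetrix arrays. The titles of the samples gave the line and the replicate number. The authors deposited 1 linear intensity per probe set. MAS5 is the software named in the submitters' processing notes, and its version and a genome build are not given in the sources used here. Each array had a 2% trimmed mean of 150, so arrays had been scaled to a common level, which removes any difference in total signal. The values carry no detection calls, and the number of arrays limits the precision.

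Of 45101 probe sets, 64 controls were left out. The platform annotation gave 34945 of the rest a single gene symbol, 932 several and 9160 none. Names come from probe sets with 1 symbol, and 34741 of these matched a current gene record (GRCm38.p6 gene table) with the same symbol. Signals were analysed as log2(signal + 16), with a filter at the 40th percentile of the mean over the 4 arrays. The main test was limma 3.58.1 in R 4.3.3 (lmFit, eBayes with a variance trend, 2 group means, 2 residual and 5.13 prior degrees of freedom), two-sided with a Benjamini-Hochberg threshold of 0.05, and was tested on simulated data. The labels number the arrays of a line as biological replicates without naming separate cultures, and p-values measure the spread between these arrays. Per direction, the 12 genes with the smallest p and the 12 with the widest gap between nearest arrays were named among those with non-overlapping groups and the same sign in both sets, and up to 4 members per gene list by smallest p. The 38 lists hold 1177 symbols, of which 1058 matched. The members and lists were chosen with earlier results of these data known. Alternatives were the replicate block, all 6 arrays, filters, pseudocounts, normalizations, fewer probe sets, no variance trend and leaving out each array.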

Additional observations from a re-analysis of the deposited data

How the results depend on the processing

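With limma, 0 probe sets passed the adjusted threshold in the comparison as reported and in 13 of 15 alternatives. With the replicate block on 4 arrays 3 passed (1845 at an unadjusted p under 0.05), and with all 6 arrays and the replicate block 1 passed. Macroh2a1 kept its log2 difference of 1.65 in both blocked fits and passed there, with adjusted p of 0.00463 and 0.00559. The cause was not tested. Leaving out each array in turn gave Macroh2a1 differences of 1.43 to 1.88. The labels do not say that a replicate number marks a shared batch. Between the lines, the differences of replicate 1 from replicate 2 correlated with 0.415 across tested probe sets. Arrays of the same number correlated most (0.987 and 0.988). There are only 2 such pairs, and what the numbers mark was not tested.

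The count at an unadjusted p under 0.05 was 745 as reported, 1820 without the signal filter and between 642 and 927 when an array was left out. Without replicate 1 of the macroH2A1 line 64.8% of these were higher, against 44.6% as reported. Of 2010 values computed under the alternatives for 135 genes, the ranked ones and leading list members, 2009 kept their sign. The exception was S100a4, which ranged from -0.021 to 1.11 when an array was left out. These genes were chosen on the same arrays. For the ranked genes the lines did not overlap, so leaving out an array, a block or another pseudocount could not turn their sign. The count is therefore not a measure of stability. Signal near the filter limits what dim probe sets can show, Macroh2a2 among them.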
